A study of Mus musculus with 27 samples.

Results

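The genes described are 37 mouse genes whose products build, sort or release extracellular vesicles, with the tetraspanins that are commonly used as vesicle markers. Members were the listed genes with a mean of at least 10 normalized counts in a table of mRNA values. Of the 37, 35 passed in the endothelial table, 33 in the macrophage table and 35 in the table of endothelial SRBI knockdown, 32 passed in all 3 tables and 36 in at least 1. The tables list 55291 genes each, of which 15595, 13630 and 14217 had such a mean. Vamp7, which encodes a vesicle SNARE, was not analysed here. Just inside the limit were Cd37 in the endothelial table (mean 13.1) and Smpd3 in the macrophage table (11.1). Just outside were Sytl4 in the endothelial table (9.61) and Rab27b (7.54), Tspan8 (4.81) and Sytl4 (1.02) in the macrophage table. In the SRBI knockdown table Cd37 had a mean of 0.677.

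Polyadenylated RNA was sequenced from mouse endothelial cells (EC) and mouse peritoneal macrophages (PMAC), in 6 groups of 3 libraries: control, chylomicron-treated and SRBI-knockdown for each cell type. Chylomicrons transport fat absorbed in the gut through lymph and blood, and SRBI is the product of Scarb1, a receptor for lipoproteins. No label gives a strain, an age, a dose, a time or a knockdown method. They do not say in which cells the knockdown behind the macrophage libraries was made, whether knockdown libraries also received chylomicrons, or whether macrophages met chylomicrons or endothelial vesicles. The extraction text names PL and PLA murine lines without tying them to libraries. Nothing states that replicates came from separate cultures or animals, so the p-values measure only the spread between these libraries, which may be technical.

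Extracellular vesicles arise by several routes. Exosomes form when the membrane of a late endosome buds inwards under the ESCRT machinery, under ceramide made by neutral sphingomyelinase, or around syndecan, syntenin and ALIX, and they are released when Rab GTPases and SNARE proteins bring that endosome to the plasma membrane. Tetraspanins organise membrane microdomains, and several of them are enriched on vesicles from most cell types. Endothelial cells and macrophages both release such vesicles and take them up.

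The libraries held 40046820 to 46700757 reads assigned to genes for EC control and chylomicron, 30547284 to 55874954 for PMAC and 16758727 to 20715157 for EC SRBI knockdown. EC control replicate 1 stood apart in mitochondrial reads, 8.35% against 1.16% to 3.54% in the other EC libraries. Scarb1 averaged 281 ± 26.7 reads per 1000000 assigned reads (RPM) in EC control (SD, n = 3) and 235 ± 34.8 in EC chylomicron. That difference was not called (log2 fold change -0.29, interval -0.53 to -0.05, adjusted p = 0.147 by limma). In EC SRBI knockdown, normalized separately and not tested against control, Scarb1 averaged 117 ± 3.14 RPM. In macrophages it stood at 2281, 2287 and 2355 normalized counts in control, at 1875, 1770 and 2149 with SRBI knockdown and at 1571, 1832 and 1737 with chylomicrons. It was lower than control in the knockdown group (log2 fold change -0.26, adjusted p = 0.0127) and in the chylomicron group (-0.43, adjusted p = 1.98e-04), so libraries of both labels had less Scarb1 than control. Between knockdown and chylomicrons the log2 difference was 0.17, with an interval of 0.01 to 0.33 (adjusted p = 0.163). In macrophages 12 of 12 macrophage markers were above 1 RPM, and in EC control and chylomicron 11 of 12 endothelial markers were. The EC SRBI knockdown libraries had 8 of 12 endothelial markers above 1 RPM, with Cldn5 at 0. The EC libraries also carried fibroblast and mural markers, whose summed level was 2733 to 3232 RPM in control, 3141 to 3267 with chylomicrons and 4237 to 4637 with SRBI knockdown. The summed endothelial markers, a list of other genes, were lower in each of these groups. They stood at 1006 to 1107 RPM in control, 800 to 1009 with chylomicrons and 246 to 269 with SRBI knockdown. In bulk RNA, fewer cells of a type and less RNA per cell cannot be told apart.

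Stretches of 250 bases before the gene start are shown for 3 members called in at least 1 comparison: Sdc4, higher with chylomicrons in both cell types; Cd82, higher in EC and lower in PMAC; and Cd53, the member with the highest fold change in PMAC. The sequences are from a RefSeq promoter table on build GRCm38.p6, in which 29 of the 37 genes were matched, and are printed on the coding strand from 5′ to 3′, each from the minus strand of the chromosome. Sdc4 spans chr2:164443189-164443438, Cd82 chr2:93462951-93463200 and Cd53 chr3:106790150-106790399. Capitals mark every match, on either strand, of 3 motifs: the kappaB-type consensus, TGANTCA (an AP-1 type) and GGGCGG (a GC box).
Sdc4: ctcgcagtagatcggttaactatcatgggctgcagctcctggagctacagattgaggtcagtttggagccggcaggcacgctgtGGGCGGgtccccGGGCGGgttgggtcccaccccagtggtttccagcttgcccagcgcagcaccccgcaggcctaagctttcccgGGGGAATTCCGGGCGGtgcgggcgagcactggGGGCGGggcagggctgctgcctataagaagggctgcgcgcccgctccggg
Cd82: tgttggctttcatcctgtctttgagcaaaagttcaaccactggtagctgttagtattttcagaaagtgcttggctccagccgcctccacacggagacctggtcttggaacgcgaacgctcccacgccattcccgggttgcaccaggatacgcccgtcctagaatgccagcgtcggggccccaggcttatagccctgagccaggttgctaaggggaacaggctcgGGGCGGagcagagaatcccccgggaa
Cd53: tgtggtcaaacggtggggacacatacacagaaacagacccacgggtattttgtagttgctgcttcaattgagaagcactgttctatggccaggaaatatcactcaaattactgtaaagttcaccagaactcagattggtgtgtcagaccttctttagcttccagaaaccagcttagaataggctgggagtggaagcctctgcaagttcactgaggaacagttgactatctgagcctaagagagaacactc
The Sdc4 stretch held the only kappaB-type match of the 3, GGGGAATTCC, which started 82 bases before the gene start and was followed directly by a GC box without overlapping it. It held 4 GC boxes, Cd82 held 1 and Cd53 none of the motifs. Of 27026 promoters of that length, 3.74% held the kappaB-type consensus, 6.85% the AP-1 type and 33% a GC box. Of the 29 members, the kappaB-type consensus stood in 1 (Sdc4), the AP-1 type in 1 (Anxa2) and a GC box in 16. The motifs were chosen with the sequences in view, the kappaB type after looser forms had been tried, and a match describes letters only.

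In endothelial cells, 2 members were higher with chylomicrons than in control and 1 was lower. These were the tetraspanin gene Cd82, the syndecan gene Sdc4 and the neutral sphingomyelinase gene Smpd3. Of the 35 members tested, 32 did not pass the threshold of an adjusted p under 0.05 (limma on log2 of the normalized count plus 1, Benjamini-Hochberg adjustment over all genes, 3 against 3 libraries). The share called was 8.57% of the members, against a background of 8.45% of all genes tested (5.16% higher and 3.28% lower). The groups did not overlap for 25.7% of the members and 24.7% of all genes. The median log2 fold change was 0.02 for the members and -0.02 for all genes.

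Cd82, a tetraspanin also known as a suppressor of metastasis (chromosome 2, 93419102 to 93462950), stood at 9746, 10913 and 11099 normalized counts in EC control. With chylomicrons it stood at 18043, 19518 and 18405. All 3 treated libraries lay far above all 3 controls, with a log2 fold change of 0.82 (SE 0.088, adjusted p = 8.59e-05, limma). This was the highest change among the members in EC. The call held under each alternative setting tried. None of the other 8 tetraspanins among the members passed. Cd9, Cd63, Cd81 and Cd151, the broadly expressed vesicle tetraspanins, had log2 fold changes of 0.00 to 0.14, and Tspan4, known from migrasomes, had 0.15 (adjusted p = 0.376). Tspan8 stood at -0.03, with a wide interval of -0.65 to 0.59. The leukocyte tetraspanin genes Cd53 and Cd37 were detected at low levels, with means of 82.8 and 19.7 normalized counts in control and 51.6 and 6.45 with chylomicrons. Their log2 fold changes were -0.71 (adjusted p = 0.147) and -1.47 (adjusted p = 0.251). For both genes every chylomicron library lay below every control, and neither passed the threshold.

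Sdc4, which encodes the heparan sulfate proteoglycan syndecan-4, a cargo of syntenin-dependent vesicles (chromosome 2, 164424247 to 164443188), stood at 5911, 6121 and 6394 normalized counts in EC control. With chylomicrons it stood at 7510, 7963 and 8731. The groups did not overlap, and the log2 fold change was 0.39 (SE 0.083, adjusted p = 0.00966). It missed the threshold when EC control replicate 1 (adjusted p = 0.0740) or replicate 2 (0.0560) was left out and under limma fitted with no trend (0.0761), at log2 fold changes of 0.36 to 0.39. The other genes of the syndecan and syntenin route did not pass: Sdc1, which encodes syndecan-1, at -0.01, Sdcbp, which encodes syntenin, at 0.09 and Arf6, a small GTPase that acts on syntenin vesicles, at 0.20 (adjusted p = 0.151).

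Smpd3, which encodes neutral sphingomyelinase 2, the enzyme that makes ceramide for budding into endosomes (chromosome 8, 106252548 to 106337965), stood at 514, 553 and 484 normalized counts in EC control. With chylomicrons it stood at 246, 385 and 268. Each treated library was below each control, with replicate 2 the nearest, and the log2 fold change was -0.81 (SE 0.157, adjusted p = 0.00577). Under limma fitted with no trend its adjusted p was 0.0819, which missed the threshold. Smpd2, which encodes neutral sphingomyelinase 1, had -0.07 (adjusted p = 0.697).

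None of the 10 ESCRT and accessory members passed in EC, at log2 fold changes of -0.15 (Chmp2a) to 0.07 (Pdcd6ip), and none had an unadjusted p under 0.05 by limma. None was called by edgeR or DESeq2 either. These genes were Hgs and Stam of the cargo-binding complex, Tsg101, Vps28 and Vps37a of ESCRT-I, Chmp2a and Chmp4b of the ESCRT-III filament, the ATPase genes Vps4a and Vps4b that disassemble it, and Pdcd6ip, which encodes ALIX. Among the Rab GTPases of release, Rab27b, a docking factor, had the largest difference, from 363 ± 18.9 to 277 ± 23.5 normalized counts (-0.39, adjusted p = 0.0808), while Rab27a stood at -0.08. Rab11a, Rab35 and Rab7, which act in recycling, docking and lysosomal transport, lay between -0.04 and 0.15. Snap23, a plasma membrane SNARE, had 0.17, and Flot1, Flot2, Anxa2 and Anxa5, the flotillins and annexins found on vesicle membranes, lay between 0.02 and 0.08. For 28 of the 32 members not called, the 95% interval of the log2 fold change stayed within 0.5 on either side of 0. The 4 outside were Cd37, Cd53, Tspan8 and Rab27b. Endothelial markers moved in the same samples: 5 of 11 tested were lower with chylomicrons and 0 higher, beside 3.28% and 5.16% of all genes. Their summed level was 1006 to 1107 RPM in control and 800 to 1009 with chylomicrons. Their part in the 3 calls was not tested.

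**Figure D1:**
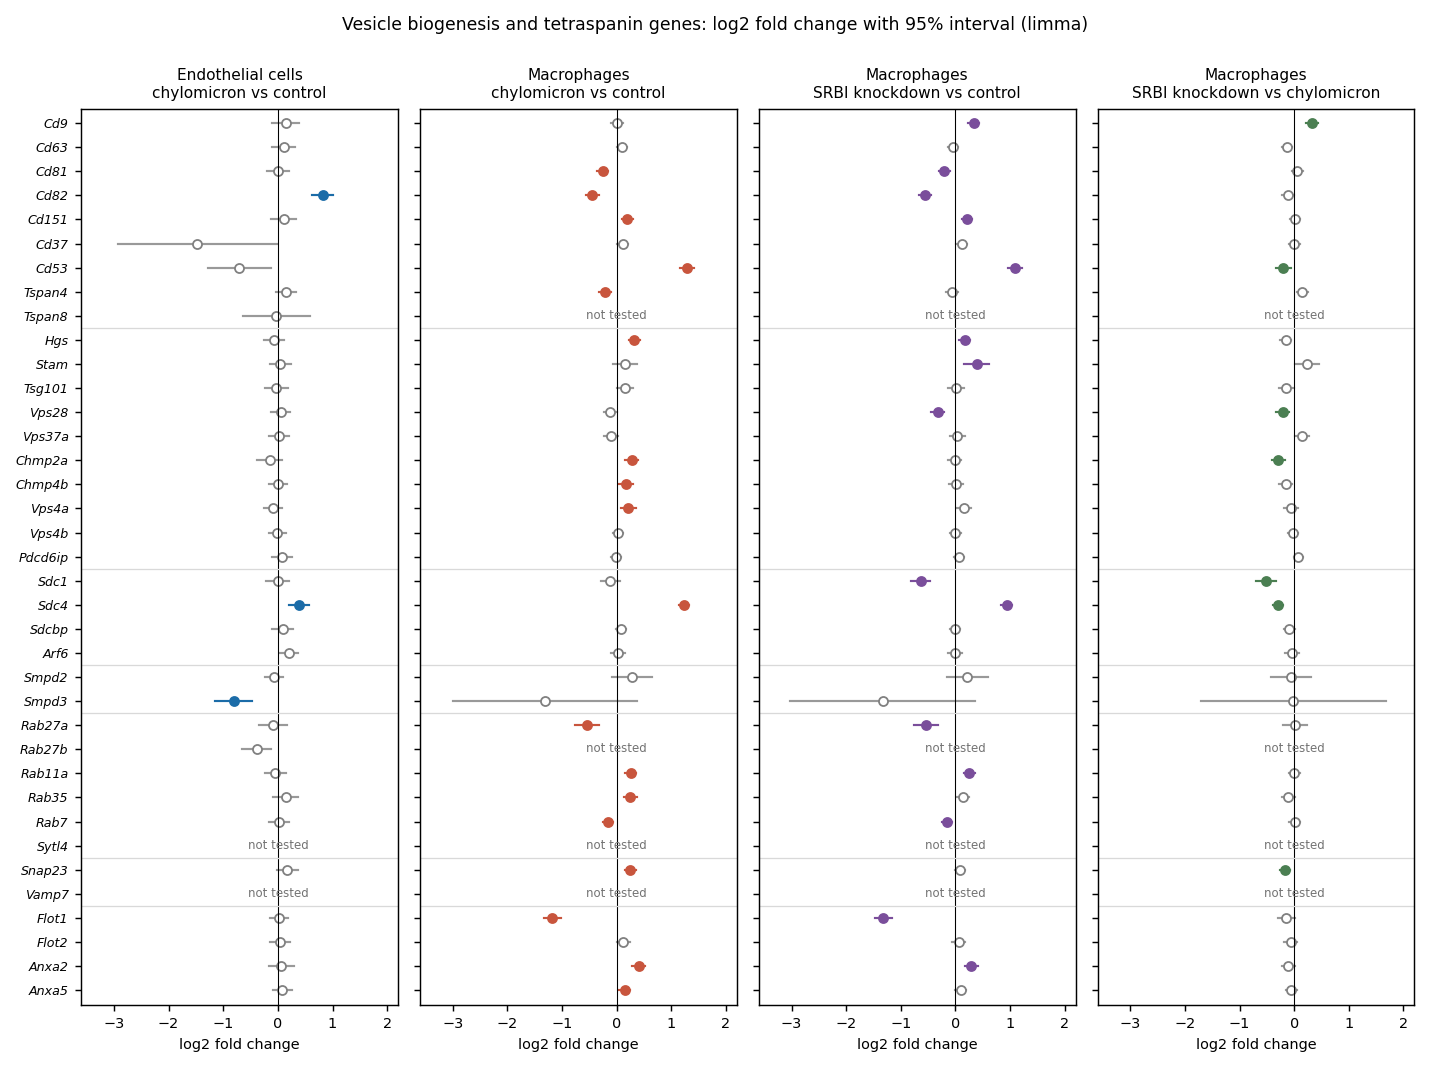
Log2 fold change (horizontal axis) of each of the 37 genes (rows, grouped by role) in the 4 comparisons, with 95% intervals from limma; filled points passed an adjusted p of 0.05, open points did not, and genes below the limit of 10 are marked as not tested. Only 3 points are filled in the endothelial panel, and Cd53, Sdc4 and Flot1 lie farthest from 0 among the filled points of both macrophage panels against control.

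In macrophages, 12 members were higher and 6 lower with chylomicrons than in control, of 33 tested. Among the members called, the highest log2 fold changes were those of Cd53 and Sdc4 and the lowest that of Flot1. The share called was 54.5% of the members and 33.4% of all genes tested (16% higher and 17.4% lower), and the groups did not overlap for 69.7% of the members and 42.5% of all genes. The median log2 fold change was 0.11 for the members and -0.01 for all genes, and the median absolute change was 0.20 and 0.22. These calls rest on normalized counts, and all 18 held with TMM scaling. In RPM, Anxa5, Chmp4b and Vps4a, called higher, overlapped control. Cd9, Vps37a, Vps4b and Pdcd6ip, not called with chylomicrons, lay below every control in RPM but overlapped control in normalized counts. The macrophage libraries labelled SRBI knockdown were compared with the same 3 controls, so both comparisons share them. There 8 members were higher and 7 lower, or 45.5% of the members against 30.1% of all genes (14.7% higher and 15.5% lower), and the groups did not overlap for 60.6% of the members and 47.5% of all genes. The median absolute log2 fold change there was 0.155 for the members and 0.208 for all genes.

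Cd53, a tetraspanin of leukocytes (chromosome 3, 106758861 to 106790149), stood at 46560, 43399 and 48586 normalized counts in PMAC control. It stood at 110320, 105761 and 122152 with chylomicrons, and at 93469, 104971 and 96310 with SRBI knockdown. All 6 libraries lay above all 3 controls, with log2 fold changes of 1.29 (SE 0.062, adjusted p = 2.84e-11) and 1.09 (adjusted p = 2.84e-10). Cd82 went the other way, from 5996, 5665 and 5694 normalized counts in control to 4214, 3969 and 4552 with chylomicrons and 3809, 4036 and 3930 with SRBI knockdown. No treated library reached the lowest control, and the log2 fold changes were -0.45 (adjusted p = 4.91e-06) and -0.56 (adjusted p = 3.80e-07). Cd81 was lower in both groups, by 0.26 and 0.21 on the log2 scale, and Cd151 was higher, at 0.20 and 0.21. Tspan4 was lower with chylomicrons (-0.21, adjusted p = 0.00440) and did not pass with SRBI knockdown (-0.06). Cd9 did the reverse, at 0.00 with chylomicrons and 0.33 with SRBI knockdown (adjusted p = 6.28e-05). Cd63 (0.09 and -0.04) and Cd37 (0.11 in both) did not pass in either.

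Sdc4 stood at 4251, 4206 and 4044 normalized counts in PMAC control. It stood at 10030, 9755 and 9637 with chylomicrons, and at 8200, 7884 and 7816 with SRBI knockdown. The 3 groups did not overlap, and the log2 fold changes against control were 1.23 (SE 0.045, adjusted p = 6.26e-13) and 0.93 (adjusted p = 2.72e-11). Sdc1 (chromosome 12, 8771396 to 8793716) stood at 1304, 1241 and 1283 in control, at 1225, 1206 and 1104 with chylomicrons and at 931, 792 and 752 with SRBI knockdown. Only the knockdown group passed, at -0.63 (adjusted p = 1.32e-05) against -0.12 (adjusted p = 0.318) with chylomicrons. The syntenin gene Sdcbp and Arf6 did not pass in either comparison, at -0.02 to 0.08.

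Flot1, which encodes flotillin-1, a scaffold of membrane rafts (chromosome 17, 35823320 to 35832789), stood at 2390, 2317 and 2256 normalized counts in PMAC control. It stood at 1079, 1069 and 940 with chylomicrons, and at 931, 866 and 994 with SRBI knockdown. Every library of both groups lay below every control, the highest at 1079 against the lowest control at 2256, with log2 fold changes of -1.17 (SE 0.075, adjusted p = 1.40e-09) and -1.32 (adjusted p = 3.04e-10). Its partner Flot2, whose product forms hetero-oligomers with flotillin-1, did not pass, at 0.12 (adjusted p = 0.0969) and 0.06 (adjusted p = 0.482). Anxa2, a calcium-dependent phospholipid-binding protein, was higher in both groups, at 0.40 and 0.29. Anxa5, which binds phosphatidylserine, was higher with chylomicrons (0.15, adjusted p = 0.0188), a call lost without PMAC control replicate 2 (adjusted p = 0.0624) or 3 (0.0658) and without PMAC chylomicron replicate 2 (0.0732).

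Of the 10 ESCRT and accessory members, 4 were higher with chylomicrons in PMAC and none lower: Hgs (0.33), Chmp2a (0.27), Vps4a (0.21) and Chmp4b (0.17). The share called was 40% of the 10, beside 33.4% of all genes (16% higher and 17.4% lower). Chmp4b lost the call without PMAC chylomicron replicate 2 (adjusted p = 0.153), PMAC control replicate 2 (0.0718) or 3 (0.130), and Vps4a lost it without PMAC control replicate 2 (0.0818). With SRBI knockdown, Stam (0.39, adjusted p = 0.00908) and Hgs (0.17, adjusted p = 0.0193) were higher and Vps28 lower (-0.33, adjusted p = 1.82e-04), or 3 of the 10 beside 30.1% of all genes. The Hgs call was lost without PMAC SRBI knockdown replicate 1 (adjusted p = 0.110) or without PMAC control replicate 1 (0.0628) or 3 (0.0606). In RPM, Hgs overlapped between knockdown (82.6 to 91.3) and control (80.6 to 83.3). Tsg101, Vps37a, Vps4b and Pdcd6ip did not pass in either comparison, at -0.10 to 0.15. The median log2 fold change of the 10 was 0.15 with chylomicrons and 0.03 with SRBI knockdown. Under limma fitted with no trend, Chmp4b, Anxa5 and Rab7 (with chylomicrons) and Stam and Rab7 (with knockdown) missed the threshold, at adjusted p of 0.0513 to 0.127. Chmp4b also missed it with no filter on low values (0.0643) and with a replicate block (0.0506).

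The 4 Rab genes tested each passed with chylomicrons in PMAC, 2 higher and 2 lower. Of all genes, 33.4% were called (16% higher and 17.4% lower). Rab27a, which docks multivesicular endosomes at the plasma membrane (chromosome 9, 73044810 to 73097623), was lower, from 825 ± 89.8 normalized counts in control to 564 ± 61.6 with chylomicrons and 566 ± 10.0 with SRBI knockdown (log2 fold changes -0.55 and -0.54, adjusted p = 4.86e-04 and 6.26e-04). Rab7, a GTPase of late endosomes and lysosomes, was lower by 0.16 and 0.15. Its call was lost without PMAC control replicate 2 in both comparisons (adjusted p = 0.0594 and 0.0802), and with SRBI knockdown also without knockdown replicate 1 (0.0651) or 2 (0.0629). Rab11a, a GTPase of recycling endosomes, was higher at 0.25 and 0.26, and Rab35 was higher with chylomicrons (0.25, adjusted p = 0.00197) and did not pass with SRBI knockdown (0.14, adjusted p = 0.0667). Snap23 was higher with chylomicrons (0.25, adjusted p = 2.18e-04), against 0.09 (adjusted p = 0.161) with knockdown. Rab27b, Tspan8 and Sytl4 were below the limit for testing in macrophages. Smpd3 was close to it, at 17.8 normalized counts in control and 7.08 and 8.46 in the other groups, at 10.8 to 23.9 in the control libraries and 4.14 to 12.7 with chylomicrons, which overlapped, and Smpd2 did not pass (0.28 and 0.22).

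The macrophage marker genes moved in the same libraries. Of 12 markers, 3 were higher and 6 lower with chylomicrons, and 2 were higher and 7 lower with SRBI knockdown. Of all genes, 16% were higher and 17.4% lower with chylomicrons, and 14.7% and 15.5% with SRBI knockdown. The changes of the markers varied in size. Their log2 fold changes ranged from -3.01 to 1.64 with chylomicrons, and the lowest with SRBI knockdown was -3.32. The lowest in both was Timd4, a receptor of resident macrophages, from a mean of 11960 normalized counts in control to 1479 with chylomicrons and 1192 with knockdown, and the highest was Cd14, the lipopolysaccharide co-receptor, from 17789 to 55312 and 40844. Csf1r, the receptor for macrophage colony-stimulating factor, was lower (-0.65 and -0.67), as was the efferocytosis receptor gene Mertk (-0.95 and -1.12). The summed level of the 12 was 49006 to 51587 RPM in control, 29881 to 32104 with chylomicrons and 33844 to 37528 with SRBI knockdown. Most of that difference was Lyz2, which encodes lysozyme and averaged 41036 RPM in control, 21888 with chylomicrons and 26723 with knockdown, while Adgre1, which encodes the macrophage marker F4/80, stayed between 3117 and 3585 RPM in all 9 libraries. Their part in the members' changes was not tested.

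The direct comparison of the libraries labelled SRBI knockdown with those labelled chylomicron-treated tested the differences between them. Of 33 members, 1 was higher and 6 were lower in SRBI knockdown, or 21.2% against 11.2% of all genes (5.6% higher and 5.59% lower), and the groups did not overlap for 48.5% of the members and 27.3% of all genes. The median absolute log2 fold change was smaller for the members (0.109) than for all genes (0.145). Cd9 was the member that was higher, at 16525, 16262 and 17925 normalized counts with knockdown against 12997, 14202 and 13197 with chylomicrons (log2 fold change 0.33, SE 0.051, adjusted p = 3.94e-04). Sdc1 was lower by 0.52 (adjusted p = 5.81e-04), Sdc4 by 0.30 (adjusted p = 2.79e-04) and Chmp2a by 0.29 (adjusted p = 0.00253). Vps28 (-0.21), Snap23 (-0.17) and Cd53 (-0.20) passed by a small margin, with adjusted p of 0.0188, 0.0211 and 0.0482. Vps28 and Snap23 lost the call without PMAC SRBI knockdown replicate 1 or 2 or PMAC chylomicron replicate 1 (adjusted p = 0.0576 to 0.0970). Cd53 lost it without knockdown replicate 1 or 3 or chylomicron replicate 1 or 3 (0.0866 to 0.210). It also missed the threshold with a filter at a mean of 1, no filter, no trend, a replicate block or the 2 groups fitted alone (0.0510 to 0.201), and with no trend Snap23 (0.0697) and Vps28 (0.0814) missed it too. In RPM, Cd53 overlapped between knockdown (2263 to 2563) and chylomicrons (2446 to 2927). Flot1 (-0.14), Cd82 (-0.11, adjusted p = 0.223) and Rab27a (0.01, adjusted p = 0.966) did not pass. Their intervals were -0.30 to 0.01, -0.23 to 0.00 and -0.21 to 0.23. For 25 of the 26 members not called, the 95% interval stayed within 0.5 on either side of 0, with Smpd3 the exception.

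**Figure D2:**
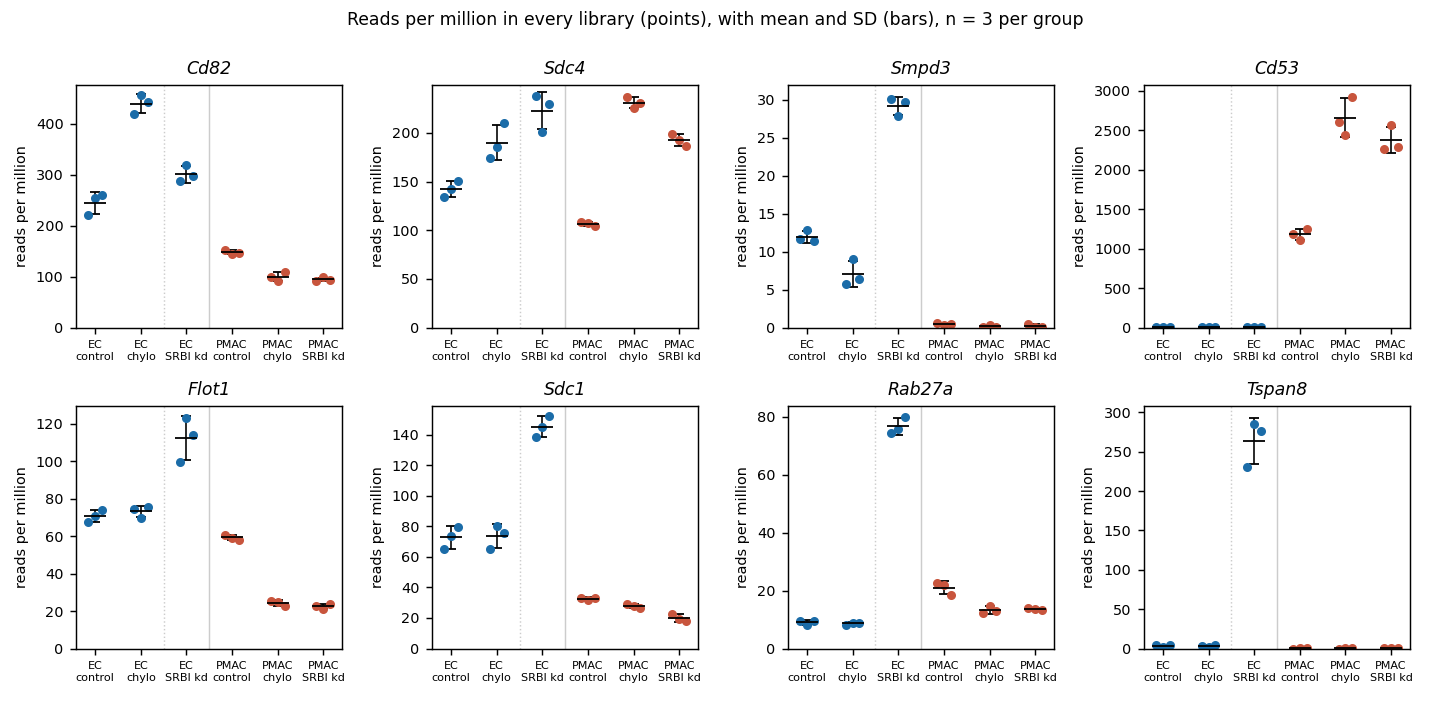
RPM (vertical axes from 0) of 8 members in every library (points) of the 6 groups, with the mean and SD of 3 libraries as bars; the dotted line sets off the EC SRBI knockdown libraries, which come from a separately normalized table, and the solid line the macrophages. Sdc4 is higher with chylomicrons in both cell types, Cd82 is higher in EC and lower in PMAC, and Tspan8, Rab27a and Smpd3 are highest in the EC SRBI knockdown libraries.

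The SRBI-knockdown EC libraries were deposited apart, in a table that holds no control, so their levels in RPM are only set beside those of EC control, with no test across the separately normalized tables. Of 36 members, 26 were higher in all 3 knockdown libraries than in any control, 2 were lower and 8 overlapped. Of these 2 tables, Sytl4 and Cd37 reached the mean of 10 only in the one where they were higher, so their difference follows from the choice of members. Of the 34 that reached it in both tables, 25 were higher and 1 lower, beside 37.4% and 27.5% (64.9% in all) of the genes that reached it in both. Of all genes that reached it in either table, 62.8% lay outside the control range, 34.9% above and 27.9% below it. The median log2 ratio was 0.34 for the 34 members and 0.08 for all genes that reached the mean in both tables. Over the 36, with TMM scaling 23 members were higher and 5 lower, and with median-of-ratios scaling 26 and 5. No member changed direction.

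Tspan8, a tetraspanin of epithelia and tumour cells (chromosome 10, 115816817 to 115849893), stood at 4.74, 2.40 and 4.22 RPM in EC control and at 231, 285 and 277 RPM with SRBI knockdown. The ratio of the means was 69.7. Rab27a stood at 9.51, 8.09 and 9.56 RPM in control and at 74.5, 75.8 and 80.2 with knockdown, a ratio of 8.48. Its effector Sytl4, which encodes the granule-docking protein granuphilin (chromosome X, 133936385 to 133981821), stood at 0.354, 0.278 and 0.325 RPM in control and at 4.25, 3.16 and 3.11 with knockdown, a ratio of 11.0 that rests on 41 and 194 reads. Among the 34 members that reached the mean of 10 in both tables, the ratios of Tspan8 and Rab27a were the highest. With chylomicrons in EC, Tspan8 and Rab27a were not called and Sytl4 was below the limit for testing. Cd37 had 19, 31 and 10 reads in the 3 controls and 1, 0 and 1 in the 3 knockdown libraries. Smpd3 (29.2 against 12.0 RPM), Rab27b (18.7 against 8.40), Cd53 (4.21 against 1.92), Sdc1 (145 against 72.8) and Arf6 (110.5 against 61.3) had ratios of 1.80 to 2.44. Cd63, Cd81, Hgs, Chmp2a, Vps28, Rab7, Rab11a and Snap23 overlapped with control.

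Cell type markers differed in the same libraries. The summed endothelial markers were 246 to 269 RPM with SRBI knockdown against 1006 to 1107 in control. Cdh5, which encodes VE-cadherin, averaged 46.2 RPM against 363. The summed mesothelial markers were 520 to 554 RPM against 30.7 to 32.9, with Krt19, a keratin of mesothelium and other epithelia, at 360 against 9.26. The knockdown, the separate table, the depth and these marker differences cannot be told apart in the ratios above.

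**Figure D3:**
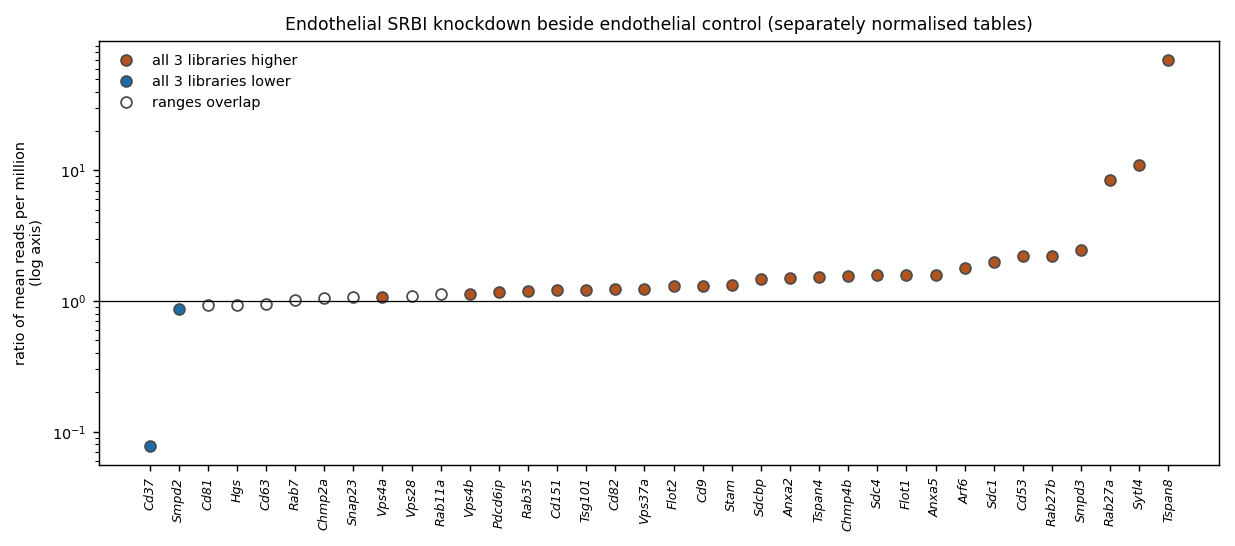
Ratio of mean RPM in EC SRBI knockdown to EC control (vertical log axis) for the 36 members (horizontal axis, in order of the ratio), with filled points where all 3 knockdown libraries lay above or below all 3 controls. Tspan8, Sytl4 and Rab27a stand at ratios of 69.7, 11.0 and 8.48, and Cd37, with 2 reads in the knockdown libraries, is lowest; Sytl4 and Cd37 reached the mean of 10 only in the table where they were higher. The other members lie between 0.867 and 2.44.

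Set side by side in RPM, again across separately normalized tables and with no test, the control libraries of both cell types are given as a description. Of 35 members, 19 were higher in every PMAC control than in any EC control and 15 were lower. Of the 15, Rab27b and Tspan8 reached the mean of 10 only in the EC table, and the 33 that reached it in both gave 19 and 13, beside 29.1% and 56.7% (85.8% in all) of the genes that did. Of all genes that reached it in either table, 86.4% lay outside the EC range, 27.7% above and 58.7% below it. TMM scaling, which moved the median log2 ratio of all genes from -0.60 to -0.07, gave 23 and 9, with 3 members changing direction, and median-of-ratios scaling (-0.11) gave 22 and 9, with 2. Cd53 averaged 1179 ± 73.8 RPM in PMAC control and 1.92 ± 0.157 in EC control, and Cd37 174 ± 3.88 and 0.454 ± 0.207. Rab27a averaged 21.0 RPM in PMAC and 9.06 in EC, whereas its paralogue Rab27b averaged 0.128 and 8.40, and Tspan8 averaged 0.110 and 3.79. Smpd3 averaged 0.454 RPM in PMAC and 12.0 in EC, and Smpd2 7.98 and 35.9. The syntenin gene Sdcbp averaged 550 and 190 RPM. Cd151, a tetraspanin that binds laminin-binding integrins, averaged 116 and 397, and Anxa2 227 and 696.

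Of 83 further genes of the pathway, 81 were tested in EC and 69 in PMAC. In EC, 4 were higher with chylomicrons and 3 lower, or 8.64% of the 81 beside 8.45% of all genes, a share near the background. The syntaxin gene Stx6, a SNARE of the trans-Golgi network and endosomes, stood at 2626, 2831 and 2983 normalized counts in control and 5057, 4999 and 4749 with chylomicrons, without overlap (log2 fold change 0.81, adjusted p = 3.76e-05). Plscr1, which encodes phospholipid scramblase 1, had 0.57 (adjusted p = 9.24e-04), Tspan11 0.59 (adjusted p = 0.0102), Tspan7 -0.53 (adjusted p = 0.00412), Tspan13 -0.41 (adjusted p = 0.0165) and Dgka, a diacylglycerol kinase of multivesicular body sorting, -0.34 (adjusted p = 0.0222). Leaving out 1 library ended the calls of Dgka (each EC control replicate, or chylomicron replicate 1), Tspan13 (EC control replicate 1 or 3, or chylomicron replicate 1) and Tspan11 (EC control replicate 1), at adjusted p of 0.0540 to 0.126. With no trend in limma, Dgka, Tspan13 and Tspan7 missed the threshold (0.0628 to 0.132).

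In PMAC, 14 of the 69 were higher and 17 lower with chylomicrons, and 10 were higher and 17 lower with SRBI knockdown. The shares called were 44.9% and 39.1%, beside 33.4% and 30.1% of all genes. Hpse encodes heparanase, which trims the heparan sulfate of syndecans. It stood at 954, 1098 and 1064 normalized counts in control, at 378, 357 and 355 with chylomicrons and at 319, 256 and 314 with SRBI knockdown. Both groups lay well below control (log2 fold changes -1.51 and -1.81, adjusted p = 8.18e-09 and 7.48e-10). In EC its change was -0.08 (adjusted p = 0.705). Sdc3, a further syndecan gene, was lower by 0.67 and 0.77 on the log2 scale. The ESCRT-I genes Vps37c and Mvb12b were higher (0.72 and 0.47) and lower (-0.73 and -0.35), and Ptpn23, an ALIX-related protein, was higher (0.37 and 0.17). Among tetraspanins, Tspan3 was higher (0.59 and 0.39), and Tspan14, a partner of the protease ADAM10, was lower (-0.91 and -0.71). Tspan13 was lower with SRBI knockdown (-1.09, adjusted p = 0.00411), from a mean of 196 normalized counts in control to 93.5, and was not called with chylomicrons (-0.15, adjusted p = 0.711).

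In the direct comparison of SRBI knockdown with chylomicrons, 6 of the 69 were higher and 10 lower, or 23.2% beside 11.2% of all genes (5.6% higher and 5.59% lower). Mvb12b, an ESCRT-I gene (0.38, adjusted p = 0.00533), and Tspan5 (0.37, adjusted p = 0.00475) were higher. The ESCRT-I genes Mvb12a (-0.30, adjusted p = 0.0198), Ubap1 (-0.28, adjusted p = 0.00102) and Vps37c (-0.25, adjusted p = 0.0108) were lower, as was the member Vps28 of the same complex, while its genes Tsg101 (-0.14), Vps37a (0.14) and Vps37b (0.10) were not called. Tspan13 was lower (-0.94, adjusted p = 0.0288) with groups that overlapped. Leaving out 1 library ended the calls of Mvb12a (knockdown replicate 1 or 2, or chylomicron replicate 2) and Vps37c (knockdown replicate 3), at adjusted p of 0.0539 to 0.106. With no trend, both and Mvb12b missed the threshold (0.0672 to 0.0802).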

How the data were processed

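The authors deposited 3 mRNA tables whose values are a signal, namely normalized counts. Per the submitters' processing notes, the builds were GRCm38 and mm10 and the tools included Subread 1.6.3, STAR 2.7.3a, featureCounts and bcl2fastq, whose roles are not stated; the normalization tool is not given in the sources used here. Per the labels, a stranded mRNA kit was used. Dividing out 1 factor per library gave whole reads throughout (tolerance 0.01 reads), so reads, and from them RPM, could be recovered. Reads carry no molecular identifiers, and no interval on reads is given. The intervals printed come from limma on normalized counts and rest on the spread between libraries.

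The main test was two-sided, by limma 3.58.1 (R 4.3.3) with a mean-variance trend, on log2 values after adding 1, by group, restricted to gene means of 10 or more, with 6 EC or 9 PMAC libraries in a fit. Benjamini-Hochberg adjustment ran over all genes tested. Tables normalized separately were not tested against each other. No label says whether replicate numbers pair the samples, and the main test used no pairing. Alternatives were other pseudocounts, filters and scalings, sample weights, no trend, a replicate block, fits of 2 groups, edgeR 4.0.16 (quasi-likelihood) and DESeq2 1.42.0 on recovered reads, and leaving out each library. For levels across tables, a limit in both tables was added after seeing the data. Scripts were tested on simulated data. Every member is named. Values per library are given for members called in EC, for members called in PMAC against control without overlap at an absolute log2 fold change of at least 0.58, and for members whose EC SRBI knockdown libraries did not overlap EC control at a ratio of at least 3 or at most 1/3 (Cd37 in reads). Macrophage markers with values, and Cd82 and Cd9 in PMAC, were added after their values were seen. Up to 3 further pathway genes in each direction per comparison were named by size of change, at a mean of at least 100 and without overlap; for 1 of them no result is given. The members, lists and rules were chosen with earlier results of these data known. The small RNA libraries of endothelial media were not used here.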

Additional observations from a re-analysis of the deposited data

Results flagged for a closer look

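For 4 members, in normalized counts, every chylomicron library lay on one side of every control in EC and on the opposite side in PMAC. This was 12.1% of the 33 members tested in both cell types and 5.19% of the 12461 genes tested in both. The difference between the cell types was not tested, since their tables were normalized separately, and no explanation was weighed. Cd82 had log2 fold changes of 0.82 in EC and -0.45 in PMAC, and it passed the threshold in both. Cd53 had -0.71 in EC, where it was not called, and 1.29 in PMAC, where it was. Cd37 had -1.47 and 0.11 and was called in neither. In EC its mean was 13.1 normalized counts over both groups, 19.7 in control and 6.45 with chylomicrons. It reached the limit for testing there through its control libraries, and its place among the 4 and in the share of 12.1% rests on that. Vps4a had -0.09, not called, and 0.21, called. In RPM, Vps4a overlapped control in both cell types, and Cd37 overlapped it in PMAC (164 to 179 against 170 to 177). Of the 4, Cd82 and Cd53 stayed apart from control in RPM in both cell types. The share of all genes that do so in RPM was not worked out.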

How the results depend on the processing

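No direction reversed among 71 named gene results under 1265 fits with an alternative. Of these fits, 1200 kept their side of the threshold, 63 lost the call and 2 gained it. RPM was not among the alternatives. In RPM, Cd37 in PMAC averaged 173 with chylomicrons and 174 in control. In EC, empirical Bayes without a trend gave 1 member higher, 0 lower and 587 genes called (main 2, 1 and 1317), and sample weights gave 3 lower, adding Cd53 and Rab27b. Leaving out 1 library gave 1 to 2 members higher and 736 to 1557 genes, the lowest without EC control replicate 1 and 804 without EC control replicate 2. For SRBI knockdown against chylomicrons in PMAC (main 1 higher, 6 lower, 1525 genes), no trend gave 3 lower and 602 genes, DESeq2 gave 2 higher, and leaving out 1 library gave 3 to 6 lower and 819 to 1807 genes, 819 without knockdown replicate 1 and 935 without replicate 2. Same-numbered replicates shared no more deviation than others, with correlations across genes of -0.16 to 0.17 in EC and -0.10 to 0.07 in PMAC. Differently numbered libraries gave -0.40 to 0.32 in EC and -0.04 to 0.11 in PMAC. What lies behind the EC correlations was not tested. With a replicate block, EC kept its 3 member calls and PMAC SRBI knockdown against control its 15, while chylomicrons in PMAC gave 17 of 18 (Chmp4b, adjusted p = 0.0506) and knockdown against chylomicrons 6 of 7 (Cd53, adjusted p = 0.0704). The cause of these changes was not tested. Low counts limit Cd37 and Cd53 in EC and Smpd3 in PMAC.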
